A study of Mus musculus with 20 samples.

Results

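Foxp1, Foxp2, Meis1, Meis2, Ikzf1, Isl1, Ebf1, Rarb, Rxrg and Zfp503 encode transcription factors of striatal projection neurons, and their transcripts were followed here from precursor tissue to mature dorsal striatum. The 10 genes were taken by symbol from 34620 symbols counted in each RNA library, all 10 were found, and all 10 were among the 19192 genes that passed the filter on low counts. The study compared mouse brain regions over development, with 6 polyA RNA sequencing libraries next to 14 bisulfite samples that were not analysed here. All 6 RNA libraries came from frozen, cryosectioned and microdissected brains of animals labelled male, wild type and C57BL/6, with no treatment and no age stated. Hippocampal precursors (HP), striatal precursors (SP), young hippocampal CA pyramidal neurons (yCA) and young medium spiny neurons (yMSN, which the labels call medial) have 1 library each. Dorsal medium spiny neurons (dMSN) have 2. The names are those of cell types, but the material is dissected tissue, so every library holds whatever other cells the dissected piece contained, and fewer cells of a type cannot be told apart from less RNA per cell. The labels do not say whether the 2 dMSN libraries came from separate animals.

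Medium spiny neurons are the GABAergic projection neurons of the striatum and arise from the lateral ganglionic eminence of the embryonic forebrain. They form a direct pathway, marked by the dopamine receptor Drd1a and the peptide genes Tac1 and Pdyn, and an indirect pathway, marked by Drd2, Adora2a and Penk. Isl1 and Ebf1 are known for the differentiation of direct pathway neurons and Ikzf1 for that of enkephalin neurons of the indirect pathway. Foxp1, Foxp2 and Meis2 are known from both developing and mature striatum, and Zfp503 (also called Nolz1) from its embryonic mantle. Rarb and Rxrg encode nuclear receptors that bind DNA as a pair and are activated by retinoids.

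The marker lists were checked first, because the 10 factors are also used by other tissues. The 9 medium spiny neuron markers summed to 6361 CPM in dMSN 1 and 6355 CPM in dMSN 2 (CPM is the read count divided by the library size, which was adjusted by TMM, and set to a common depth), with Ppp1r1b, which encodes DARPP-32, at 2575 and 2473 CPM. In the young libraries their sum was 186 CPM for yMSN but 245 CPM for yCA, so in the young pair they were no higher in the library labelled striatal. The precursors had sums of 42.3 CPM for SP and 27.0 CPM for HP. The 6 pallial glutamatergic markers were present in dMSN too, at 1170 and 1882 CPM in sum, where yCA had 1099 CPM and yMSN 561 CPM. Glial markers separated dMSN from all earlier libraries. The 5 oligodendrocyte markers summed to 7730 and 6607 CPM in dMSN and to 56.2 to 97.0 CPM in the other 4 libraries. The 5 astrocyte markers had sums of 1213 and 1267 CPM in dMSN, where the earlier libraries had 233 to 320 CPM. This glial gain moved with every difference between dMSN and earlier tissue given for the factors, and its part in them was not tested. The 10 skeletal muscle markers, all above 3 counts in both young libraries, had sums of 6407 CPM for yCA and 2374 CPM for yMSN, against 14.3 to 45.8 CPM in the other 4 libraries. The 8 bone and cartilage markers were highest in yMSN, with 7537 CPM in sum, where yCA had 557 CPM. The 6 motor neuron and hindbrain markers summed to 146 CPM in SP and 24.3 CPM in HP, with En2 at 98.8 CPM in SP. Xist, the RNA of the silenced X chromosome, ran from 489 to 1088 CPM in HP, SP, yCA and yMSN and from 0 to 0.0333 CPM in dMSN, and 3 Y-linked genes together had 0 counts in SP and yCA, although all libraries carry the same male label. Reads assigned to genes numbered 31282185 to 36969136 in the precursor and young libraries, and 152347673 and 145713678 in dMSN.

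**Figure D1:**
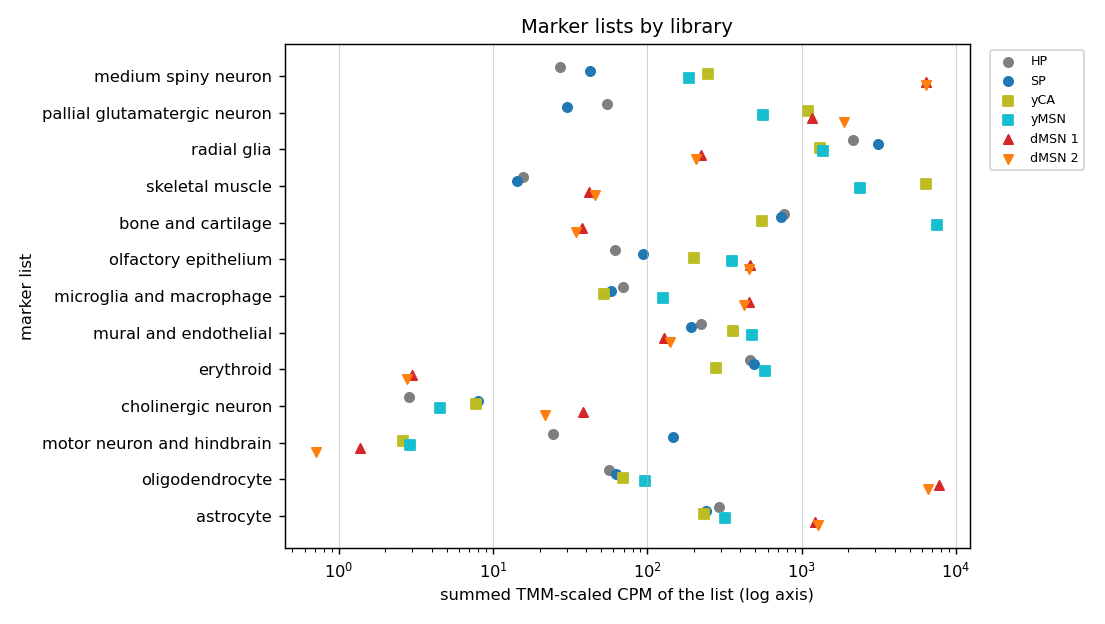
Summed TMM-scaled CPM of 13 marker lists (log axis) in each of the 6 libraries, 1 symbol per library. Medium spiny neuron markers are at 6361 and 6355 CPM in the dMSN libraries and close together in the young pair, at 245 and 186 CPM, while muscle markers are high in the young pair alone.

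The first question was which of the factors were lower in mature dorsal striatum and which were held or gained there. Foxp2, Meis1, Ikzf1, Isl1, Ebf1 and Zfp503 were lower in dMSN than in both SP and yMSN. Rarb and Rxrg were higher in dMSN than in both. Foxp1 and Meis2 were higher in dMSN than in SP, calls that held in 4 and 1 of 11 alternatives, and did not pass against yMSN. Against yMSN, 2 of the 10 factors were higher and 6 lower, where 32.1% of all genes tested were higher and 35.4% lower. Against SP, 4 were higher and 6 lower, where 39.1% of all genes were higher and 33.1% lower. Most genes differed in these comparisons (67.5% and 72.1% in either direction), so the number of factors called is close to the background, and the direction and size of each carry the description. The median log2 change of the 10 was -0.80 against yMSN and -0.81 against SP, beside -0.11 and 0.20 over all genes. Both comparisons share the dMSN libraries. They were tested with edgeR's quasi-likelihood test and Benjamini-Hochberg adjustment over all genes at 0.05, with 1 residual degree of freedom that comes from the dMSN pair, so the p-values rest on the spread between these 2 libraries and assume that the single libraries vary alike. Without dMSN 1 the calls of Ikzf1, Rarb and Zfp503 against yMSN ended, and without dMSN 2 those of Foxp2, Ikzf1, Isl1, Rarb and Zfp503, while Meis1, Ebf1 and Rxrg were called in all 11 alternatives of both comparisons. The fits without a dMSN library also had another model, with terms for lineage and stage, so the 2 changes cannot be told apart. Called genes that were higher made up 47.6% against yMSN and 54.1% against SP, and 31.0% and 43.4% when library size alone was used for scaling.

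**Figure D2:**
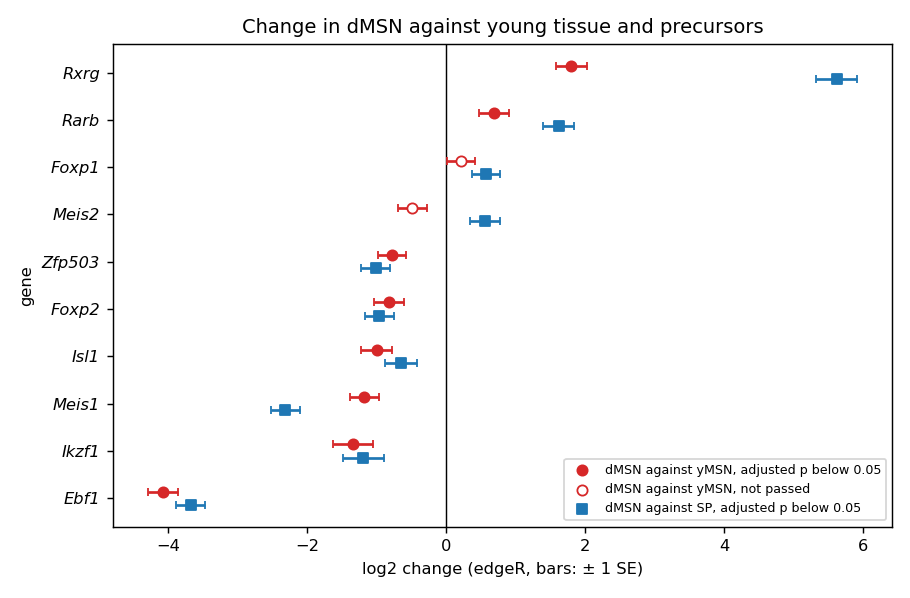
Log2 change of each factor in dMSN against yMSN (red circles) and against SP (blue squares), from edgeR, with bars of 1 SE; open symbols did not pass. Rxrg and Rarb lie to the right of 0 in both comparisons, 6 factors lie to the left in both, and Foxp1 and Meis2 lie nearest to 0.

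Meis1 and Meis2 encode paralogous TALE homeodomain proteins that bind DNA together with Pbx partners, and their transcripts moved in opposite directions from precursor to young tissue. Meis1 measured 36.9 CPM in HP with 57.9 in SP, 24.6 in yCA with 26.3 in yMSN, and 11.9 and 11.4 in dMSN 1 and 2. SP was the highest library and dMSN the lowest, and the 2 dMSN values differed from each other by less than their counting error. In dMSN Meis1 was lower than in yMSN by a log2 change of -1.18 (SE 0.211, adjusted p = 3.3e-04) and lower than in SP by -2.31 (SE 0.208, adjusted p = 6.7e-07), both in edgeR. Meis2 measured 109 CPM in HP with 158 in SP, 395 in yCA with 326 in yMSN, and 213 and 251 in dMSN 1 and 2. Both young libraries were above all others, and dMSN lay between the young libraries and the precursors. Against SP, Meis2 was higher in dMSN by 0.56 (SE 0.218, edgeR adjusted p = 0.036), and against yMSN its change of -0.49 did not pass (SE 0.209, edgeR adjusted p = 0.054). The call against SP held in 1 of 11 alternatives. It ended with library size only, where the change was 0.074 (adjusted p = 0.769), and also with limma voom, where the change stayed at 0.55 (adjusted p = 0.055). Within each library the ratio of Meis2 to Meis1 counts was 2.95 in HP and 2.72 in SP, 16.0 in yCA and 12.4 in yMSN, and 17.9 and 22.1 in dMSN. This ratio, which needs no scaling between libraries, was higher in all 4 later libraries than in both precursor libraries. The hindbrain markers that were high in SP moved with Meis1 there, and their part in its SP value was not tested.

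The partners of the Meis proteins were counted from the same family list. Of 9 other TALE genes tested, 3 were higher and 5 lower in dMSN than in yMSN, with a median log2 change of -1.39. Pbx3, a partner of Meis proteins, stood at 114 CPM in yMSN and 31.0 and 30.9 CPM in dMSN, a log2 change of -1.89 (SE 0.188, edgeR adjusted p = 2.5e-06). Pbx4 went the other way, from 8.27 CPM in yMSN to 31.5 and 25.2 CPM, as did Meis3, from 45.8 CPM to 84.3 and 70.6 CPM. Tgif1 and Tgif2, TALE repressors, had the largest decreases of the list, with Tgif2 at 26.4 CPM in yMSN and 2.45 and 1.57 CPM in dMSN.

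Foxp1 and Foxp2, forkhead repressors that form homodimers and heterodimers, parted in dMSN. Foxp1 measured 104 CPM in HP with 93.9 in SP, 162 in yCA with 121 in yMSN, and 141 and 138 in dMSN 1 and 2. Its whole range was 1.72-fold, the narrowest of the 10 factors, and yCA was the highest library. Against yMSN the log2 change of 0.21 did not pass (SE 0.198, edgeR adjusted p = 0.363), and its sign changed to -0.36 with library size only. Against SP Foxp1 was higher in dMSN by 0.57 (SE 0.201, edgeR adjusted p = 0.022), a call that held in 4 of 11 alternatives. It ended with RLE scaling (0.45, adjusted p = 0.060), upper quartile scaling (0.44, adjusted p = 0.063), DESeq2 (0.45, adjusted p = 0.074), only SP and dMSN (0.44, adjusted p = 0.060) and without either dMSN library, and with library size only the change was 0.089 (adjusted p = 0.699). Foxp2 measured 74.0 CPM in HP with 77.8 in SP, 95.9 in yCA with 70.5 in yMSN, and 44.6 and 35.1 in dMSN 1 and 2. Both dMSN values were below all 4 earlier libraries, and the 2 differed by 1.27-fold, the widest gap between the dMSN libraries among the 10 factors. Foxp2 was lower in dMSN than in yMSN by -0.82 (SE 0.209, edgeR adjusted p = 0.0039) and lower than in SP by -0.97 (SE 0.209, edgeR adjusted p = 0.0012). The ratio of Foxp1 to Foxp2 counts within a library was 1.21 in SP, 1.71 in yMSN, and 3.15 and 3.94 in dMSN. Foxp4, another family member, stood at 190 CPM in SP, 102 CPM in yMSN, and 133 and 102 CPM in dMSN, and did not pass against yMSN.

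Ebf1, a helix-loop-helix factor of differentiating direct pathway neurons, had the largest decrease of the 10. It measured 44.9 CPM in HP with 72.5 in SP, 58.8 in yCA with 95.5 in yMSN, and 6.28 and 5.06 in dMSN 1 and 2. All 4 earlier libraries lay far above both dMSN libraries, and within each stage the striatal library was above the hippocampal. The log2 change was -4.07 against yMSN (SE 0.215, edgeR adjusted p = 1.3e-08), where the level was 16.9-fold lower in dMSN, and -3.68 against SP (SE 0.213, edgeR adjusted p = 1.4e-08), 12.8-fold lower. Its relatives moved with it. Ebf2 stood at 72.1 CPM in SP, 100.5 CPM in yMSN, and 1.45 and 1.20 CPM in dMSN, and Ebf3 at 124 CPM in SP, 110 CPM in yMSN, and 4.37 and 2.18 CPM in dMSN. Of 5 other genes of the Ebf list, which includes the Ebf-binding zinc finger genes Zfp423 and Zfp521, 4 were lower in dMSN than in yMSN and 0 higher. Ebf genes are also used by olfactory neurons, bone and vessel walls. In yMSN the bone and cartilage markers summed to 7537 CPM. The 7 olfactory epithelium markers, Ebf2 among them, summed to 354 CPM in yMSN, 199 CPM in yCA, and 462 and 457 CPM in dMSN. Against yMSN, 4 of them were lower in dMSN and 2 higher. Omp stood at 42.9 CPM in yMSN (0.283 CPM in yCA, 1.27 and 0.397 CPM in dMSN). Gnal went the other way, from 145 CPM in yMSN to 391 and 387 CPM in dMSN. The 8 mural and endothelial markers summed to 478 CPM in yMSN, against 127 and 141 CPM in dMSN. The part of these tissues in the Ebf1 value of yMSN was not tested. In SP, Omp stood at 0.252 CPM and the bone and cartilage markers summed to 736 CPM.

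Isl1, Ikzf1 and Zfp503 were also lower in mature tissue, by smaller amounts. Isl1, a LIM homeodomain factor, measured 32.6 CPM in HP with 26.3 in SP, 42.3 in yCA with 33.4 in yMSN, and 18.4 and 15.0 in dMSN. Both dMSN values were below every earlier library. The change was -1.0 against yMSN (SE 0.223, edgeR adjusted p = 0.0017) and -0.65 against SP (SE 0.225, edgeR adjusted p = 0.020), and the call against SP held in 8 of 11 alternatives. It ended with limma voom (-0.66, adjusted p = 0.054), without dMSN 1 (-0.80, adjusted p = 0.073) and without dMSN 2 (-0.50, adjusted p = 0.188). In mature striatum Isl1 is known from cholinergic interneurons, whose 4 measured markers summed to 4.49 CPM in yMSN and to 38.3 and 21.8 CPM in dMSN, with Chat, the enzyme of acetylcholine synthesis, at 6.19 and 7.84 CPM. Gbx2, another marker of the list, stood at 2.16 CPM in yMSN but at 24.6 and 5.51 CPM in dMSN 1 and 2, so the sum depends much on this gene. Isl1 was lower in dMSN than in yMSN while the sum was higher. Within the dMSN pair, Isl1 and Gbx2 were higher in dMSN 1. Chat and Slc5a7 (7.48 and 8.40 CPM in dMSN 1 and 2) were higher in dMSN 2. The part of these markers in the dMSN level of Isl1 was not tested. Of 11 other LIM homeodomain and LIM cofactor genes tested, 4 were higher and 3 lower in dMSN than in yMSN. The cofactors Lmo1, Lmo2, Lmo3 and Lmo4 were the higher, with Lmo4 at 128 CPM in yMSN and 227 and 380 CPM in dMSN, and Lhx6, of interneurons, fell from 63.7 CPM to 25.96 and 26.5 CPM.

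Ikzf1, which encodes the zinc finger protein Ikaros, was measured from few reads. It measured 6.66 CPM in HP with 6.80 in SP, 13.0 in yCA with 7.53 in yMSN, and 2.73 and 3.21 in dMSN 1 and 2, and the young hippocampal library was the highest. Behind these values are 232 counts in HP, 270 in SP and 328 in dMSN 1. The change was -1.34 against yMSN (SE 0.292, edgeR adjusted p = 0.0014) and -1.19 against SP (SE 0.294, edgeR adjusted p = 0.0029). Ikaros is best known from blood cells. The 7 microglia and macrophage markers summed to 125 CPM in yMSN and to 457 and 423 CPM in dMSN, and 6 of them were higher in dMSN. The other, Tmem119, stood at 55.3 CPM in yMSN and at 44.2 and 35.7 CPM in dMSN and did not pass. The 6 lymphoid markers summed to 5.21 to 13.6 CPM in all libraries. The part of blood cells in the Ikzf1 values was not tested. Of the 4 other Ikaros genes, Ikzf2, Ikzf4 and Ikzf5 were lower in dMSN than in yMSN, with Ikzf2 at 11.9 CPM in yMSN and 0.873 and 0.803 CPM in dMSN. Ikzf3 was higher, at 0.253 CPM in yMSN and 2.08 and 1.37 CPM in dMSN.

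Zfp503 measured 51.2 CPM in HP with 48.3 in SP, 33.2 in yCA with 40.9 in yMSN, and 24.6 and 23.1 in dMSN 1 and 2. It was highest in the precursors of both lineages and lowest in dMSN, with the young libraries between. The change was -0.78 against yMSN (SE 0.204, edgeR adjusted p = 0.0048) and -1.02 against SP (SE 0.203, edgeR adjusted p = 6.3e-04). Its paralog Zfp703 did not pass against yMSN, at 46.1 CPM there and 55.5 and 67.8 CPM in dMSN. The reference annotation has a noncoding RNA gene, A330001L22Rik, overlapping Zfp503, which was not among the counted symbols. It also has noncoding RNA genes or pseudogenes overlapping Foxp1, Foxp2, Meis1, Meis2, Ikzf1 and Rarb. Of those counted, G630016G05Rik, overlapping Meis2, had the most reads, at up to 377 counts in a library. Meis2 had at least 3792 counts in each library. No strand setting is stated for the counting, so reads of overlapping genes may be mixed.

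**Figure D3:**
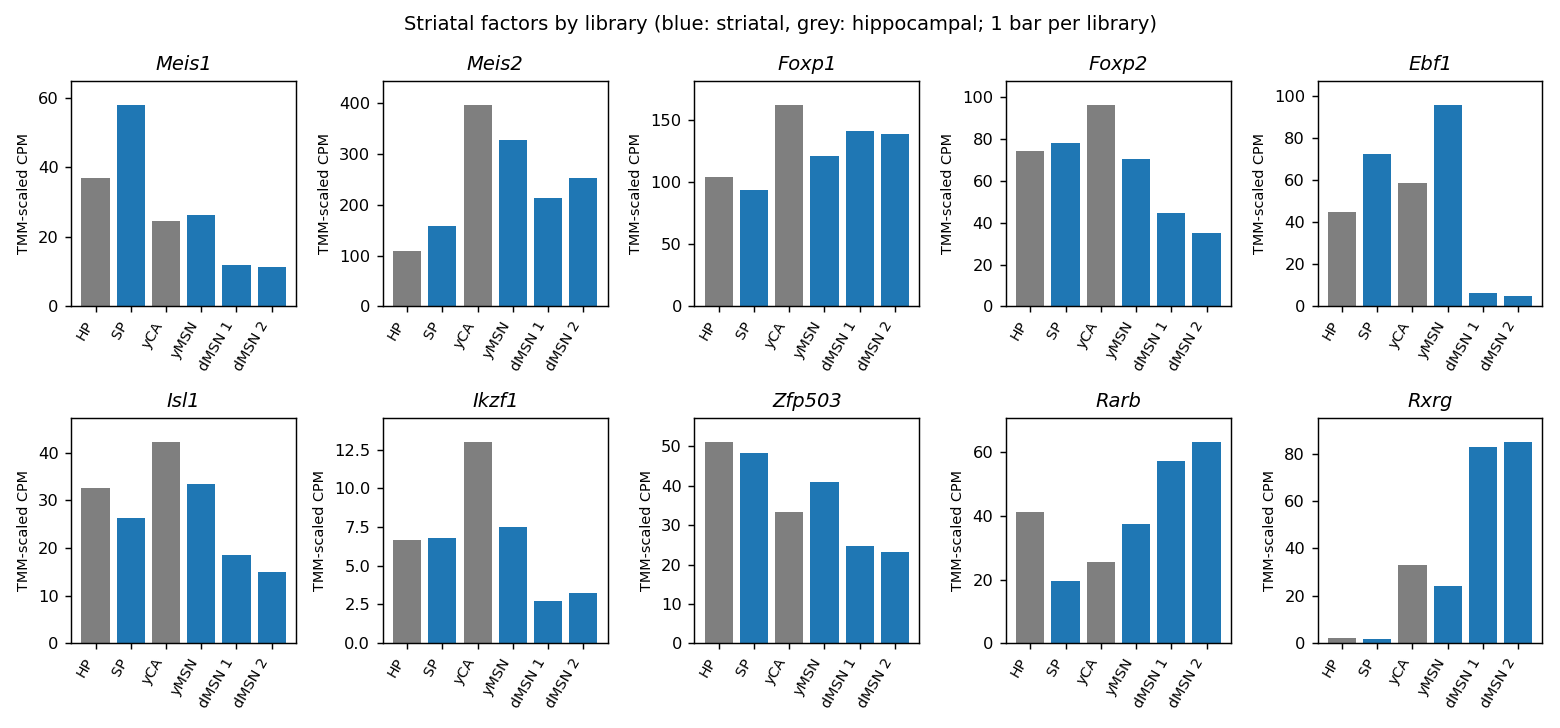
TMM-scaled CPM of each factor in each library, 1 bar per library from a zero baseline, with striatal libraries in blue and hippocampal in grey. Meis1, Foxp2, Ebf1, Isl1, Ikzf1 and Zfp503 have their lowest bars in dMSN, Rarb and Rxrg have their highest there, and Meis2 peaks in the young pair.

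Rarb and Rxrg were the 2 factors that were higher in dMSN than at both earlier striatal stages. Rxrg measured 2.30 CPM in HP with 1.71 in SP, 32.9 in yCA with 24.1 in yMSN, and 83.0 and 84.9 in dMSN 1 and 2. The 3 stages did not overlap, and the hippocampal library was above the striatal at each of the first 2 stages. Rxrg was higher in dMSN than in yMSN by 1.80 (SE 0.225, edgeR adjusted p = 1.8e-05) and higher than in SP by 5.61 (SE 0.295, edgeR adjusted p = 6.4e-09), a 49.0-fold difference. Skeletal muscle also expresses Rxrg, and the muscle markers were high in the young libraries, where Acta1 had 1460 CPM (yCA) and 500.1 CPM (yMSN). In dMSN, where Rxrg was highest, Acta1 stood at 28.2 and 28.4 CPM, and the muscle markers summed to 41.5 and 45.8 CPM. In SP, Acta1 stood at 2.06 CPM and the muscle markers summed to 14.3 CPM. The part of muscle in the Rxrg values was not tested.

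Rarb measured 41.2 CPM in HP with 19.7 in SP, 25.5 in yCA with 37.4 in yMSN, and 57.3 and 63.3 in dMSN 1 and 2. In the striatal libraries the 3 stages were in rising order, while in the hippocampal libraries the precursor was above the young tissue. The change in dMSN was 0.69 against yMSN (SE 0.213, edgeR adjusted p = 0.013) and 1.61 against SP (SE 0.225, edgeR adjusted p = 3.4e-05). The call against yMSN ended with library size only (0.12, adjusted p = 0.628) and with lineage and stage as model terms (1.04, adjusted p = 0.077). It also ended without dMSN 1 (1.11) and without dMSN 2 (0.97), in fits that had these same terms. The call against SP held in 8 of 11 alternatives and ended with lineage and stage as model terms (1.15, adjusted p = 0.075), without dMSN 1 (1.23, adjusted p = 0.162) and without dMSN 2 (1.08, adjusted p = 0.201).

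The sequences upstream of both receptor genes are shown because retinoid receptors bind repeats of a short element, and the Rarb promoter is a textbook case of a gene controlled by its own receptor. RefSeq windows of GRCm38.p6 were found for 9 of the 10 factors, all but Foxp2, with 14 windows in all. The 250 bases before each listed start are given 5′ to 3′ on the gene's strand, and capitals mark every GGTCA or GTTCA on either strand.
Rarb, chr14:16575477-16575726, minus strand: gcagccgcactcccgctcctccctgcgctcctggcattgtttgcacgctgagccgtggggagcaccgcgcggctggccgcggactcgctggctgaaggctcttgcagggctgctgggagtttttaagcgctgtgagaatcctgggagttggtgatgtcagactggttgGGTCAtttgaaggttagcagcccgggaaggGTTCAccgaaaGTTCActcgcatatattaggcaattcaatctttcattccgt
Rxrg, first start, chr1:167598112-167598361, plus strand: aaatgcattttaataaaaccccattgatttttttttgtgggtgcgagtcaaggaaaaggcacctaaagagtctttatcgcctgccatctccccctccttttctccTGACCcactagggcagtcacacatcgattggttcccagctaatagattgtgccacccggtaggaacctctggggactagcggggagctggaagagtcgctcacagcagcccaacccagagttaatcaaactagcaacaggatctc
Rxrg, second start, chr1:167618015-167618264, plus strand: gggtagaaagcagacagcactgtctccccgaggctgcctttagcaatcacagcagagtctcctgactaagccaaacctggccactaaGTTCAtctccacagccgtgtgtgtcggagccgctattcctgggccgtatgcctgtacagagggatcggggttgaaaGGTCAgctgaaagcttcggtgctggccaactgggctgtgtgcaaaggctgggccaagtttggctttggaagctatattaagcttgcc
The Rarb window holds GTTCANNNNNNGTTCA, a direct repeat of the retinoic acid response element type, at positions -52 to -37 from the start, and a further GGTCA at -82. On either strand this repeat was found in 22 of 32851 windows of the same length (0.067%), and in no other window of the factors. The single elements are common, since GGTCA was in 35.2% and GTTCA in 30.5% of windows, on either strand. The Rxrg windows hold GGTCA at -145 on the opposite strand at the first start, and GTTCA at -163 and GGTCA at -87 at the second. A match describes letters only and shows no binding.

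The other retinoid receptor genes, named after their values were seen, did not follow Rarb and Rxrg as a group. Rara fell from 41.5 CPM in yMSN to 18.4 and 16.4 CPM in dMSN, Rarg from 47.7 CPM to 14.4 and 11.99 CPM, and Rxra from 51.0 CPM to 31.1 and 25.4 CPM. Rxrb rose from 70.1 CPM to 137 and 119.9 CPM. The changes were -1.25, -1.85, -0.85 and 0.88 on the log2 scale, with edgeR adjusted p of 2.4e-04, 8.7e-06, 0.0029 and 0.0025. Within a library the ratio of Rarb to Rara counts was 0.822 in SP, 0.902 in yMSN, and 3.11 and 3.87 in dMSN, and that of Rxrg to Rxra was 0.0181, 0.472, and 2.67 and 3.34. Both ratios were higher in each dMSN library than in any earlier library.

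**Figure D4:**
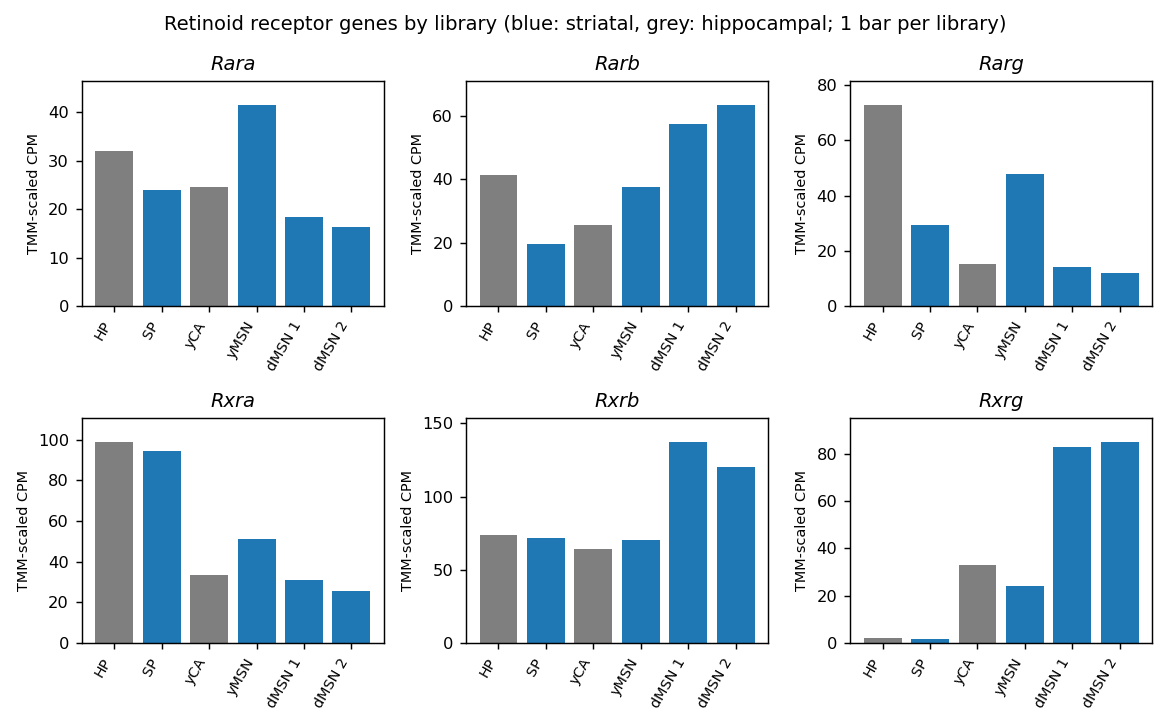
TMM-scaled CPM of the 6 retinoid receptor genes in each library, 1 bar per library from a zero baseline, with striatal libraries in blue and hippocampal in grey. Rarb, Rxrb and Rxrg have their highest bars in dMSN, and Rara, Rarg and Rxra have their lowest there.

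The rest of the retinoid pathway list held 21 genes besides Rarb and Rxrg, all tested. In dMSN 5 were higher and 15 lower than in yMSN (median log2 change -1.05), and 6 were higher and 12 lower than in SP (median -1.45). Among the higher were Aldh1a1, an enzyme that makes retinoic acid, at 6.72 CPM in yMSN and 67.6 and 59.4 CPM in dMSN, and Rbp4, a retinol carrier, at 1.54 CPM in yMSN and 20.6 and 27.5 CPM in dMSN. Among the lower were Aldh1a3, another such enzyme, at 36.7 CPM in yMSN and 0.707 and 0.958 CPM in dMSN, and Crabp1 and Crabp2, which bind retinoic acid in the cytoplasm. Crabp1 stood at 321 CPM in SP, 70.2 CPM in yMSN, and 17.04 and 13.9 CPM in dMSN. Cyp26a1 and Cyp26c1, enzymes that degrade retinoic acid, were at or below 0.181 CPM in dMSN. The synthesis enzymes therefore differed among themselves, with Aldh1a1 higher and Aldh1a2 and Aldh1a3 lower in dMSN than in yMSN.

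The next question was which factors changed from precursor to young tissue in both lineages. Rxrg and Meis2 rose and Meis1 fell, and the other 7 did not pass. Of all genes, 21.7% were higher and 13.7% lower. The edgeR model had lineage and stage terms, leaving 2 residual degrees of freedom. They come from the dMSN pair and from the difference between the lineages in this change, which the model counts as spread. Rxrg rose by 3.83 (SE 0.169, adjusted p = 0.0011) and Meis2 by 1.45 (SE 0.248, adjusted p = 0.011), and Meis1 fell by 0.86 (SE 0.203, adjusted p = 0.027). The median log2 change of the 10 was 0.38, beside 0.10 over all genes. The Meis1 call ended without SP (-0.59, adjusted p = 0.099), without yMSN (-0.58, adjusted p = 0.089), without dMSN 1 (-0.86, adjusted p = 0.081) and without dMSN 2 (-0.86, adjusted p = 0.080). Rarb passed as higher without HP (0.92, adjusted p = 0.011) or without yCA (0.82, adjusted p = 0.018), and as lower without SP (-0.70, adjusted p = 0.036) or without yMSN (-0.69, adjusted p = 0.038). Foxp1, at 0.50 and just short of the threshold (SE 0.151, adjusted p = 0.054), passed as higher in 6 of 14 alternatives: upper quartile scaling (adjusted p = 0.047), library size only (0.037), limma voom (0.046), 1 mean per cell group (0.021), without SP (0.046) and without yMSN (0.043). Ikzf1 passed as higher without SP (0.96, adjusted p = 0.050) and without yMSN (0.97, adjusted p = 0.043). Zfp503 passed as lower with RLE scaling (-0.56, adjusted p = 0.048) and DESeq2 (-0.56, adjusted p = 0.034).

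The single pairs of libraries show each lineage by itself, as log2 ratios with a prior count of 2 and an exact 95% interval, which takes in only the counting error; no test was made between single libraries. For yMSN over SP the ratio was 3.79 for Rxrg (interval 3.46 to 4.19), 1.05 for Meis2 (1.006 to 1.092), 0.93 for Rarb (0.80 to 1.05) and -1.14 for Meis1 (-1.24 to -1.03). For yCA over HP it was 3.82 for Rxrg (3.51 to 4.18), 1.86 for Meis2 (1.81 to 1.91), -0.69 for Rarb (-0.81 to -0.58) and -0.58 for Meis1 (-0.70 to -0.46). In yMSN over SP 2 of the 10 factors were at least 2-fold higher and 1 lower, where 27.2% of all genes were higher and 9.87% lower by that much (37.1% in all). In yCA over HP 2 were higher and 0 lower, against 24.7% and 14.6%. Rarb was thus higher in young than in precursor tissue in the striatal pair and lower in the hippocampal pair.

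**Figure D5:**
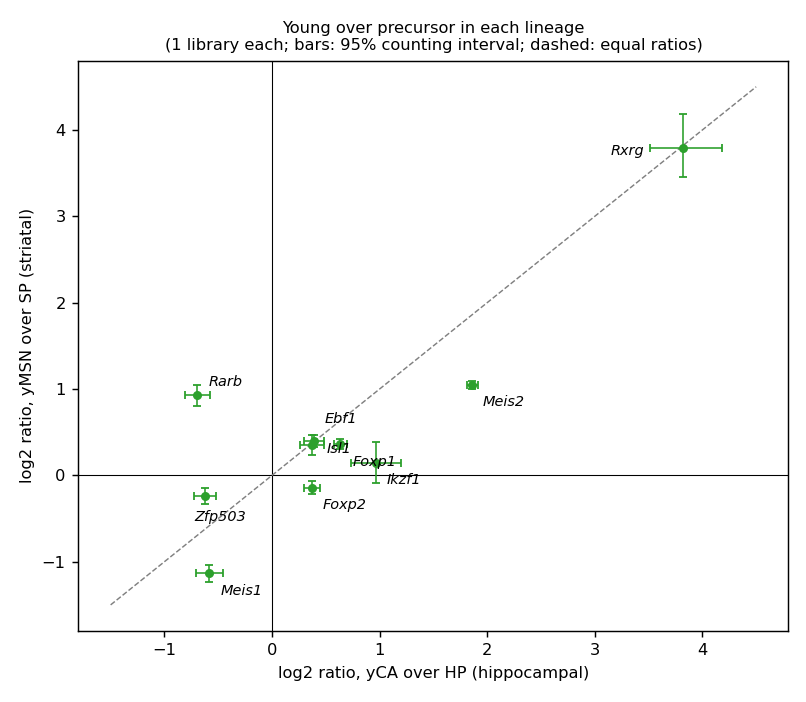
Log2 ratio of young over precursor tissue for each factor, hippocampal (yCA over HP) on the horizontal and striatal (yMSN over SP) on the vertical axis, with bars for the 95% counting interval and a dashed line of equal ratios. Rxrg lies near 3.8 on both axes, and Rarb alone lies in the upper left, at -0.69 and 0.93.

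The difference between the lineages in this change was tested in edgeR as an interaction contrast, with 1 residual degree of freedom from the dMSN pair. Rarb passed, with a striatal change that was larger by a log2 of 1.62 (SE 0.344, adjusted p = 0.018), and the other 9 factors did not. Of all genes, 3.12% were higher and 2.08% lower (5.20% in either direction). The next in size were Ikzf1 at -0.82 (adjusted p = 0.491) and Meis2 at -0.81 (adjusted p = 0.262). The Rarb call held in 6 of 7 alternatives and ended with limma voom (1.62, adjusted p = 0.158), which called 3 genes in all. Other retinoid genes shared the direction of Rarb. Of the 21, 11 were higher and 2 lower in this contrast, with a median of 1.75 beside 0.02 over all genes. Aldh1a3 had 54.0 CPM in HP but 10 CPM in yCA, and 13.6 CPM in SP but 36.7 CPM in yMSN. Crabp2 had 237 CPM in HP with 5.81 in yCA, and 214 CPM in SP with 37.0 in yMSN. In HP the 5 retina and eye markers summed to 22.7 CPM, against 10.3 CPM in SP. The bone and cartilage markers and Omp were high in yMSN, where the 7 olfactory markers summed to 354 CPM (199 CPM in yCA, 462 and 457 CPM in dMSN). Their part in these differences was not tested.

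The last question was whether the factors separated the striatal from the hippocampal libraries at both stages. None of the 10 passed in edgeR, where 0 of all 19192 genes passed, 826 had an unadjusted p below 0.05, and 2 of these were factors, Ebf1 and Rxrg. The model again had lineage and stage terms, so a stage change that differed between the lineages counted as spread. With 1 mean per cell group instead, 356 genes passed. Ebf1 was higher in the striatal libraries at both stages, with a log2 difference of 0.70 (SE 0.168, edgeR adjusted p = 0.955) and a single-pair ratio of 0.69 between SP and HP (interval 0.60 to 0.78) and 0.70 between yMSN and yCA (0.63 to 0.78). Rxrg had a difference of -0.44 (SE 0.156, edgeR adjusted p = 1). Between SP and HP 0 factors were at least 2-fold higher and 1, Rarb, was lower (ratio -1.07, interval -1.19 to -0.94), where 5.30% and 3.53% of all genes were (8.84% in all). Between yMSN and yCA 0 of the 10 differed at least 2-fold, where 3.64% of all genes were lower by that much and 17.6% differed in either direction. The log2 ratios of Foxp1, Foxp2, Meis2, Ikzf1, Isl1 and Rxrg ran from -0.79 to -0.28, higher in the library labelled hippocampal. Those of Ebf1, Rarb and Zfp503 were 0.70, 0.55 and 0.30, higher in the library labelled striatal, and that of Meis1 was 0.10, with an interval of -0.03 to 0.22. DESeq2 called 60 genes and limma voom 0 in the comparison of the lineages, with 0 of the 10 factors among them.

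Genes that mark the projection neurons themselves gave a background for the factors. Of 7 direct pathway genes 6 were higher in dMSN than in yMSN and 1 lower, and of 6 indirect pathway genes 4 were higher and 0 lower. Drd1a stood at 7.09 CPM in yMSN and 77.9 and 86.1 CPM in dMSN, and Drd2 at 10.4 CPM and 190 and 154 CPM. Direct pathway genes were thus higher in dMSN where Ebf1 and Isl1 were lower, and the indirect pathway peptide gene Penk rose from 39.4 CPM to 1744 and 1835 CPM where Ikzf1 was lower. Of 20 other subpallial and striatal transcription factor genes 13 were lower and 3 higher in dMSN than in yMSN, with a median log2 change of -1.39. Sox11 and Sox4, factors of immature neurons, fell most, with Sox11 at 85.0 CPM in yMSN and 1.496 and 3.06 CPM in dMSN, and Nr4a1, an activity-dependent nuclear receptor, rose from 13.4 CPM to 133 and 205 CPM.

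Genes with the most similar course to each factor were found by the root mean square difference of centred log2 CPM over the 5 cell groups, among 13514 candidate genes. Rxrg was nearest to Aatk, a kinase gene, and Gabrg3, a GABA-A receptor subunit, at differences of 0.13 and 0.14, and only 11 genes lay within 0.25. Gabrg3 stood at 0.277 CPM in SP, 8.45 CPM in yMSN, and 29.6 and 28.0 CPM in dMSN. Ebf1 was nearest to Ahnak, a large scaffold protein gene, at 0.22, with 2 genes within 0.25, and Mmp14, a matrix metalloprotease gene, lay just outside at 0.26. Rarb was nearest to Mitf at 0.17 and Meis2 to Sv2c, a synaptic vesicle protein gene, at 0.07. The courses of Foxp1, Foxp2 and Zfp503 were shared by many genes, with 560, 680 and 996 within 0.25. Each profile has only 5 points, and the likeness is given as a description.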

How the data were processed

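Counts of reads per gene symbol were deposited by the authors for 6 polyA RNA libraries, 1 table each, with 5 summary lines of the HTSeq counter. Per the submitters' processing notes, TopHat2 2.0.2, TopHat, Bowtie 1.0.0, HTSeq, edgeR, Bismark and methylKit were used with mm9 and NCBIM37, with no role stated. Strand setting and annotation are not given in the sources used here. Reads in no gene made up 5.34% to 9.81%, ambiguous reads 1.38% to 2.01% and reads aligned to several places 17.3% to 27.3%; these stayed out of library sizes.

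The tests used edgeR 4.0.16 under R 4.3.3 (TMM scaling, factors 0.790 to 1.18, filterByExpr, quasi-likelihood F test, Benjamini-Hochberg adjustment over 19192 genes). SE is the log2 change divided by the square root of F. Alternatives were RLE, upper quartile and library size scaling, no filter, at least 1 CPM in 2 libraries, DESeq2 1.42.0, limma 3.58.1 voom, the other model, subsets and leaving out libraries. All fits that left out a library had lineage and stage as model terms. Each comparison was also tested on simulated data, where 200 of 19192 genes were altered. Of 4-fold changes, 83.0% (dMSN against yMSN), 78.0% (dMSN against SP), 84.0% (stages), 84.0% (lineages) and 58.5% (interaction) were recovered. For 2-fold changes the shares were, in that order, 37.0%, 37.5%, 59.0%, 59.5% and 0.500%. Of the calls in the simulated data, 0% to 8.54% were of genes that had not been altered. Unaltered genes had the same mean share of reads in every simulated library. In the 6 libraries themselves, 67.5% of genes passed against yMSN, 72.1% against SP and 35.4% for the stages. In the interaction 998 of 19192 genes passed, and 0 for the lineages. Whether the shares hold with as many differences between cell groups as in these libraries was not tested. Depth sets counting intervals, which cover counting error only. The p-values measure the spread between these samples, which may be technical. With lineage and stage as model terms, that spread also takes in any difference between the lineages in the change from precursor to young tissue.

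The 10 factors and the gene lists were chosen with earlier results of these data known. Named genes were all factors, up to 8 genes per list by the size of the change in dMSN against yMSN with at least 1 CPM in a library, the 2 most abundant markers of a list, and the 3 nearest profiles (log2 of CPM plus 0.5) per factor, skipping predicted symbols. Rara, Rarg, Rxra, Rxrb, Cyp26b1, Omp, Tmem119, Chat, Col2a1, Xist, the Y-linked genes, A330001L22Rik and G630016G05Rik were named after their values were seen. Of 34620 symbols, 25575 matched RefSeq symbols of GRCm38.p6, which differs from the files' build, so only names and RefSeq promoter windows were used.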

Additional observations from a re-analysis of the deposited data

Results flagged for a closer look

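Rarb met the criterion that 2 groups' effects under the same contrast differ. Its change from precursor to young tissue was larger in the striatal than in the hippocampal lineage by a log2 of 1.62 (SE 0.344, adjusted p = 0.018 in edgeR's quasi-likelihood test of the interaction), from 41.2 CPM in HP to 25.5 CPM in yCA and from 19.7 CPM in SP to 37.4 CPM in yMSN. Each of these 4 values is 1 library. Groups of 4 to 10 libraries, which a check for outlying samples would need, do not occur among the RNA samples.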

How the results depend on the processing

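Against yMSN, 96 of 110 values of the factors kept direction and side of the threshold over 11 alternatives, and against SP 84 of 110. The number of factors higher in dMSN than in SP was 2 with RLE, upper quartile or library size scaling, DESeq2, lineage and stage as terms, or only SP and dMSN, and 1 without either dMSN library; those lower numbered 3 to 4 without a dMSN library. Against yMSN, 1 was higher with library size only, with lineage and stage as terms and without either dMSN library, and 2 to 4 were lower without a dMSN library. For young against precursor, 2 were lower with RLE or DESeq2 and 0 without either dMSN library, and 2 to 4 were higher when a library was left out. In the interaction, limma voom called 0. The cause was not tested. Leaving out a dMSN library leaves fewer samples, and against yMSN and SP those fits also changed the model to lineage and stage terms.

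Signs turned as follows. Foxp1 against yMSN was -0.36 with library size only. In the interaction, Ebf1 was -0.067 with RLE and DESeq2, -0.11 with no filter and -0.064 with the 1 CPM filter, Isl1 was 0.0072 and 0.077, and Rxrg 0.011 and 0.081, with upper quartile and library size scaling. For young against precursor, Foxp2 was -0.014 with RLE and DESeq2 and ran from -0.25 (without yCA) to 0.38 (without yMSN), and Rarb was -0.015 with RLE and DESeq2 and ran from -0.70 (without SP) to 0.92 (without HP). For striatal against hippocampal, values without each library in turn ran from -0.28 to 0.54 for Meis2, -1.07 to 0.55 for Rarb, -0.45 to 0.073 for Foxp2, -0.79 to 0.030 for Ikzf1 and -0.086 to 0.30 for Zfp503.

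Over all genes, 12948 were called against yMSN (6609 and 7073 without dMSN 1 and 2), 6798 for young against precursor (3590 and 3647), 998 in the interaction (3 with limma voom) and 0 for the lineages (60 with DESeq2, 356 with 1 mean per cell group, 1495, 1515, 116 and 130 without HP, SP, yCA and yMSN). Library size scaling moved the median of all genes from -0.11 to -0.68 against yMSN and from 0.20 to -0.25 against SP. No paired analysis was possible because the groups compared share only 1 replicate number. Depth limits Ikzf1 and the precursor values of Rxrg (80 counts in HP, 68 in SP).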
